A study of Mus musculus with 15 samples.

Results

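Dlx3 and Dlx4 are neighbouring homeobox genes of the distal-less family, which were followed here over every array of a study of the mouse first branchial arch. All probe sets of the array whose gene symbol was Dlx3 or Dlx4 were taken, which gave 4 of 45101 probe sets and 2 of 18194 named genes. Each gene had 2 probe sets, 1450475_at and 1422037_at for Dlx3 and 1420595_at and 1443591_at for Dlx4. The probe sets of Dlx3 were designed on 1 source record and those of Dlx4 on 2 different records, so the Dlx3 probe sets share a target.

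RNA came from mouse E10.5 embryos, from the first branchial arch, which is the paired swelling that gives rise to the jaws. By label the 15 arrays made 5 groups of 3. The groups were the mandibular (lower jaw) branch of Dlx5/6 mutants, the maxillary (upper jaw) branch of a group labelled KO, the wild-type (WT) mandibular branch and a pair of WT maxillary groups. The labels wrote the branches as MNA and MXA and the WT maxillary groups as WT_MXA and WT_MXA2, which are called set 1 and set 2 here, and did not say what set these apart. The mutant mandibular group was tagged 5_6_MNA, which was read as Dlx5/6 mutant beside the description shared by all samples. The gene lost in the KO group was not named in its labels, and that shared description listed mutants of dlx2, of dlx1/2 and of Dlx5/6. The sources used here give no alleles, strain or sex of the embryos. That description was a plan written ahead of the dissections, and it foresaw flash freezing and several arches per experiment. Separate embryos or pools for the arrays of a group were not stated in any label, so p values here measure a spread between arrays that may be technical.

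Dlx genes encode homeodomain transcription factors and lie in the genome in convergent pairs, Dlx1 with Dlx2, Dlx3 with Dlx4 and Dlx5 with Dlx6. In the neural crest mesenchyme of the arches they are known for a nested pattern, with Dlx1 and Dlx2 along the whole arch, Dlx5 and Dlx6 in its lower part and Dlx3 and Dlx4 closest to its tip. Endothelin 1 from the epithelium acts through its receptor Ednra and switches on Dlx5, Dlx6 and Hand2 in the lower part of the arch. Outside the jaws Dlx3 is known for its roles in placenta, hair, teeth and bone, while less is known of Dlx4.

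The deposited values were linear intensities, and their median per array ran from 26.6 to 33.5. The lowest correlation of an array with a group mate lay between 0.984 and 0.987. The bacterial dap spike-in split the arrays into a set of 9 (mandibular arrays and those of set 1, 287 to 339.7) and a set of 6 (KO arrays and those of set 2, 2564 to 2821). Mandibular arrays were therefore compared with set 1 and KO arrays with set 2, and a difference across the sets of arrays cannot be told apart from that set. The labels were checked on the lost genes. Dlx5 lay at 10.9 ± 2.97 in Dlx5/6 mutant and 727 ± 40.5 in WT mandibular arrays, and Dlx6 lay at 3.32 ± 1.52 in Dlx5/6 mutant and 249.6 ± 51.3 in WT mandibular arrays (SD, n = 3 each). On the KO arrays Dlx2 lay at 3.36 ± 0.18, against 422 ± 20.1 on the arrays of set 2. First arch mesenchyme markers were present on all arrays, with Prrx1 at 2600 or higher, Twist1 at 1270 or higher and Pdgfra at 979 or higher. Of 7 Hox genes of other arches, which the first arch is known to lack, 6 had a probe set under that name and 2 passed the filter on dim probe sets.

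In the text below, ± after an intensity is the SD of 3 arrays. Log2 changes are on the log2(intensity + 32) scale after quantile normalization, with the SE from limma, and adjusted p values are limma's over all 31643 probe sets kept. The threshold for a call was 0.05. Adding 32 understates the changes of dim probe sets, and all 4 probe sets of Dlx3 and Dlx4 were dim in most groups. In bulk RNA, fewer cells that express a gene and less of its RNA per cell cannot be told apart.

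Dlx3 was highest in the WT mandibular branch on both of its probe sets. The brighter probe set, 1450475_at, had intensities of 37.2, 35.7 and 42.0 in Dlx5/6 mutant mandibular arrays and 26.5, 46.9 and 46.4 in KO maxillary arrays. It had 170.0, 143 and 150.4 in WT mandibular arrays, 58.8, 36.7 and 35.4 in WT maxillary set 2 and 39.6, 41.3 and 33.3 in set 1. Every WT mandibular array lay above every other array, and the other 4 groups overlapped each other. Within an array, the 3 WT mandibular values stood between percentiles 74.8 and 77.2 of all probe sets. This probe set lay above its array's 40th percentile on 15 of 15 arrays.

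The second Dlx3 probe set, 1422037_at, had 19.1, 21.3 and 17.5 in Dlx5/6 mutant mandibular arrays and 39.0, 30.4 and 14.5 in KO maxillary arrays. It had 69.0, 63.3 and 54.4 in WT mandibular arrays, 9.49, 36.1 and 17.5 in WT maxillary set 2 and 30.1, 36.9 and 29.1 in set 1. The WT mandibular arrays were again the 3 highest, while the KO and set 2 arrays were widely spread. It passed its array's 40th percentile on 11 of 15 arrays.

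Dlx4 was also highest in the WT mandibular branch, and its probe set 1420595_at was lowest in the Dlx5/6 mutant. It had 7.17, 9.10 and 0.884 in Dlx5/6 mutant mandibular arrays and 20.2, 37.3 and 30.4 in KO maxillary arrays. It had 36.8, 41.5 and 53.6 in WT mandibular arrays, 32.6, 26.5 and 20.7 in WT maxillary set 2 and 19.3, 27.9 and 15.9 in set 1. The 3 mutant arrays were the lowest of all 15, and 0 of them passed the 40th percentile. The KO arrays overlapped the WT mandibular range at its low end, so on this probe set the WT mandibular group did not stand clear of all others.

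The second Dlx4 probe set, 1443591_at, was near the bottom of the scale everywhere except in the WT mandibular branch. It had 3.09, 14.5 and 4.44 in Dlx5/6 mutant mandibular arrays and 3.00, 19.5 and 2.00 in KO maxillary arrays. It had 28.2, 42.5 and 52.8 in WT mandibular arrays, 13.4, 3.68 and 3.08 in WT maxillary set 2 and 18.9, 12.9 and 4.98 in set 1. It passed the 40th percentile on 4 of 15 arrays, 3 of them WT mandibular, and so entered the test through the group where it is high. A difference of that group was built into its selection, and it is given below for completeness.

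**Figure D1:**
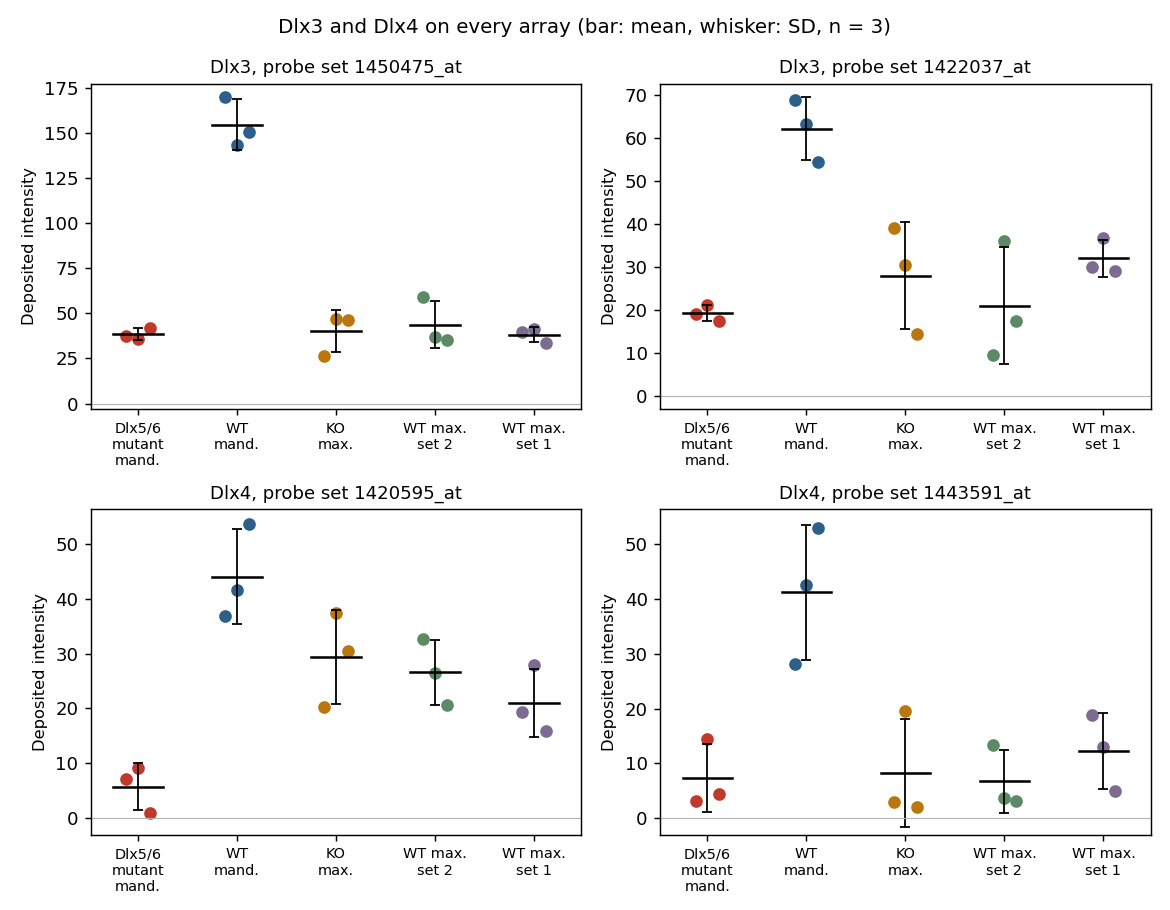
Deposited intensity (linear axis) of each Dlx3 and Dlx4 probe set on all 15 arrays by group, with the group mean as a bar and the SD as a whisker (n = 3). WT mandibular arrays reach 170.0 for Dlx3 1450475_at, where all other arrays stay at or below 58.8, and for Dlx4 1420595_at the Dlx5/6 mutant arrays are the lowest.

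Loss of Dlx5 and Dlx6 was compared with the WT within the mandibular branch. Dlx3 and Dlx4 both fell in the mutant. All 4 probe sets were called lower. Leaving out Dlx4 1443591_at, whose selection built in a difference, 3 of 3 were called lower and had mutant arrays that did not overlap the WT arrays, against a background of 1.25% of the 31643 probe sets called lower (2.66% called in either direction) and 9.76% that did not overlap and were lower. Dlx3 1450475_at averaged 38.3 ± 3.33 in mutant and 154 ± 14.0 in WT arrays, and its WT mean was 4.03 times its mutant mean. Its log2 change was -1.37 ± 0.15 (95% interval -1.68 to -1.06, adjusted p 2.37e-06). Dlx3 1422037_at averaged 19.3 ± 1.87 in mutant and 62.2 ± 7.38 in WT arrays, a log2 change of -0.87 ± 0.18 (adjusted p 0.00634).

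Dlx4 1420595_at averaged 5.72 ± 4.29 in mutant and 44.0 ± 8.68 in WT arrays, a log2 change of -1.03 ± 0.16 (95% interval -1.37 to -0.70, adjusted p 0.000335). Dlx4 1443591_at averaged 7.35 ± 6.24 in mutant and 41.2 ± 12.4 in WT arrays, a log2 change of -0.92 ± 0.20 (adjusted p 0.00926). The call of 1443591_at was lost without WT mandibular replicate 3, at a change of -0.83 and an adjusted p of 0.0584. The calls of the other 3 probe sets held without each single array. The 95% intervals of the 4 log2 changes overlapped, and the mutant values of both Dlx4 probe sets lay near the lower end of the scale, where the added 32 limits how far a value can fall.

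The WT branches were compared to ask where the genes are higher in the normal arch. Dlx3 1450475_at was called higher in the WT mandibular branch, at 154 ± 14.0 against 38.1 ± 4.19 in WT maxillary set 1. Its log2 difference was 1.41 ± 0.15 (95% interval 1.099 to 1.71, adjusted p 9.16e-07). Dlx4 1443591_at was called higher as well, at 41.2 ± 12.4 in the mandibular branch and 12.3 ± 6.98 in set 1, with a difference of 0.76 ± 0.20 (adjusted p 0.0364). That call was lost with the deposited intensities (0.72, adjusted p 0.0607) and without WT mandibular replicate 2 or 3 or set 1 replicate 2 or 3 (adjusted p 0.102 to 0.2). Leaving out this probe set, whose selection built in a difference, 1 of 3 was called higher, against 1.13% of all probe sets called higher (2.64% in either direction).

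The other 2 probe sets missed the threshold in this comparison. Dlx3 1422037_at averaged 62.2 ± 7.38 in WT mandibular and 32.04 ± 4.23 in set 1 arrays, a difference of 0.57 ± 0.18 (95% interval 0.20 to 0.94, adjusted p 0.105). Dlx4 1420595_at averaged 44.0 ± 8.68 in WT mandibular and 21.0 ± 6.22 in set 1 arrays, a difference of 0.55 ± 0.16 (95% interval 0.22 to 0.88, adjusted p 0.0785). On 3 of 3 probe sets, again without Dlx4 1443591_at, the WT mandibular arrays lay above the set 1 arrays with no overlap, which was also so for 8.22% of all probe sets.

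The KO maxillary branch was compared with WT maxillary set 2, to see whether the genes move where Dlx2 was at the bottom of the scale. Limma called 0 of the 4 probe sets, the smallest unadjusted p was 0.409, and KO and set 2 arrays overlapped on each of them. The background was 0.913% of all probe sets called. Dlx3 1450475_at averaged 39.9 ± 11.7 in KO and 43.7 ± 13.1 in set 2 arrays, a log2 change of -0.12 with a 95% interval of -0.43 to 0.18 (adjusted p 0.85). Dlx3 1422037_at averaged 28.0 ± 12.4 in KO and 21.1 ± 13.7 in set 2 arrays (0.14, interval -0.23 to 0.50).

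Dlx4 1420595_at averaged 29.3 ± 8.59 in KO and 26.6 ± 5.96 in set 2 arrays, a log2 change of 0.01 with an interval of -0.33 to 0.34. Dlx4 1443591_at averaged 8.18 ± 9.84 in KO and 6.72 ± 5.80 in set 2 arrays, with an interval of -0.41 to 0.41. Over the 4 probe sets the intervals reached from -0.43 to 0.50 on the log2 scale used, so changes within those bounds were not excluded here. The bounds are not a limit of detection. The directions of all 4 turned in at least 1 other setting, so no direction is given.

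The Dlx5/6 effect in the mandibular branch and the KO effect in the maxillary branch were then set against each other in the same fit, each within its own set of arrays. For Dlx3 1450475_at the Dlx5/6 effect was lower by 1.25 ± 0.21 on the log2 scale (difference -1.25, 95% interval -1.68 to -0.81, adjusted p 0.00139). For Dlx4 1420595_at the difference was -1.04 ± 0.23 (interval -1.51 to -0.57, adjusted p 0.0195). Dlx3 1422037_at at -1.003 ± 0.25 (adjusted p 0.0524) and Dlx4 1443591_at at -0.92 ± 0.28 (adjusted p 0.154) missed the threshold. Thus 2 of 4 were called, against 0.566% of all probe sets called lower in this contrast. The call of Dlx4 1420595_at was lost without mutant replicate 3, KO replicate 2, WT mandibular replicate 3 or set 2 replicate 3 (adjusted p 0.0604 to 0.0687). The branch and the lost gene changed together between these effects, so their parts cannot be told apart. Set 2 had mean log2 levels of 6.23 (Dlx3 1450475_at), 5.70 (Dlx3 1422037_at), 5.86 (Dlx4 1420595_at) and 5.27 (Dlx4 1443591_at). On all 4 probe sets these levels left too little room on this scale for a KO fall equal to the Dlx5/6 fall. Part of each difference may therefore be built in, and the test cannot show that the KO effect was smaller.

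Mutant mandibular and WT maxillary tissue were compared to see whether the genes settle at the upper jaw's level when Dlx5 and Dlx6 are lost. This comparison shares its arrays with the comparisons above, so its values are set beside theirs. Limma called 0 of the 4 probe sets between Dlx5/6 mutant mandibular arrays and WT maxillary set 1, and 1 of 4 had an unadjusted p under 0.05. The background was 0.594% of all probe sets called. Dlx3 1450475_at averaged 38.3 ± 3.33 in mutant mandibular and 38.1 ± 4.19 in set 1 arrays, a difference of 0.04 with an interval of -0.27 to 0.34.

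Dlx4 1420595_at averaged 5.72 ± 4.29 in mutant mandibular and 21.0 ± 6.22 in set 1 arrays without overlap. Its difference was -0.48 (interval -0.82 to -0.15, unadjusted p 0.00656, adjusted p 0.283). Dlx3 1422037_at also did not overlap and averaged 19.3 ± 1.87 in mutant mandibular and 32.04 ± 4.23 in set 1 arrays (-0.30, interval -0.66 to 0.07). Of all probe sets, 7.87% did not overlap and were lower in the mutant. Dlx4 1443591_at overlapped between the groups, at -0.16 (interval -0.57 to 0.24). Against set 2, across the sets of arrays, Dlx4 1420595_at was called lower in the mutant by limma (-0.63, adjusted p 0.012).

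The WT maxillary sets served as a measure of the difference between sets of arrays, where 8.49% of all probe sets were called. Sensory neuron markers also differed between these groups, as given below, so this measure may hold more than the set of arrays. Between set 2 and set 1 limma called 0 of the 4 probe sets, and their smallest unadjusted p was 0.105. The 4 differences ran from -0.30 (Dlx3 1422037_at) to 0.15 (Dlx4 1420595_at).

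**Figure D2:**
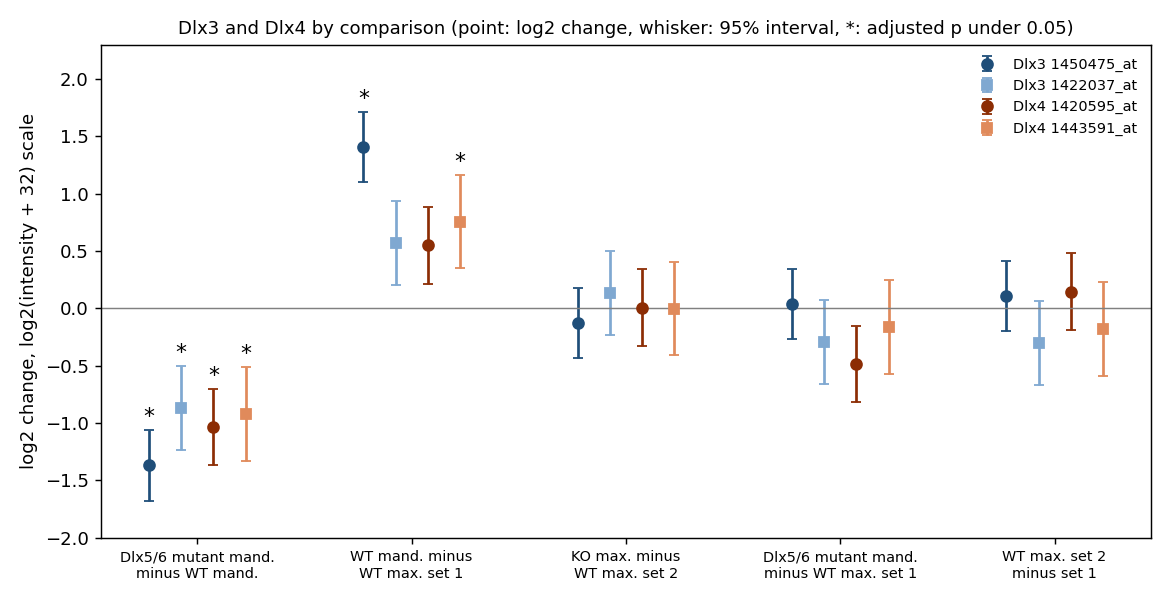
Log2 changes of each Dlx3 and Dlx4 probe set (points) with 95% intervals (whiskers) in 5 comparisons, on the log2(intensity + 32) scale, with an asterisk over those called by limma. All 4 lie below 0 for the Dlx5/6 mutant against WT mandibular branch (-0.87 to -1.37), while the KO and set 2 comparisons have intervals that hold 0.

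Ordered by mean log2 level, the WT mandibular branch came first on all 4 probe sets. Below it, 0 steps between neighbouring groups passed limma's test on any probe set. Groups further apart in order did differ on Dlx4 1420595_at. Limma called it lower in the Dlx5/6 mutant than in the KO group (-0.64, adjusted p 0.0103) and in set 2 (-0.63, adjusted p 0.012), both across the sets of arrays. The difference between the WT mandibular branch and the group next in order was called for Dlx3 1450475_at (set 2, adjusted p 1.75e-06, across the sets of arrays). It was also called for Dlx4 1443591_at (set 1, adjusted p 0.0364), but not with the deposited intensities (adjusted p 0.0607). That probe set entered the test through the WT mandibular arrays, so the first rank of that group was built into its selection. For Dlx3 1422037_at the next group was set 1 (adjusted p 0.105), and for Dlx4 1420595_at it was the KO group (adjusted p 0.114). The Dlx5/6 mutant was last in order on Dlx4 1420595_at alone, at a mean log2 level of 5.23, against 5.72 in set 1 just above it (adjusted p 0.283).

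The probe sets of each gene were compared over the 15 arrays, as a description of arrays that share groups. The log2 values of the Dlx3 probe sets had a Pearson correlation of 0.709 and a Spearman correlation of 0.20. For the Dlx4 probe sets these were 0.696 and 0.574. Between the genes, the Pearson correlation ran from 0.555 (1422037_at with 1420595_at) to 0.871 (1450475_at with 1443591_at).

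The other Dlx genes gave the frame for these changes. In a list of 8 family genes and antisense RNAs, Dlx3 and Dlx4 included, limma called 6 lower and 1 higher in the Dlx5/6 mutant. Of all probe sets 1.25% were called lower and 2.66% in either direction. The list's median log2 change was -1.77 against -0.01 over 13934 genes. Those called lower include the lost genes Dlx5 and Dlx6 and the followed genes Dlx3 and Dlx4, so part of the count and median was built in. Dlx5 and Dlx6 changed by -4.13 and -2.96. The antisense RNAs Dlx1as (-2.62) and Dlx6os1 (-2.16) were called lower, and Dlx1, which marks the whole arch, was called higher (0.72, adjusted p 4.33e-07). Dlx2 missed the threshold (0.28, adjusted p 0.153). Dlx3 and Dlx4 thus fell with Dlx5 and Dlx6, while Dlx1 rose.

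Between the WT branches 5 of the 8 were called higher in the mandibular branch and 1 lower, with a median of 1.79 against 0.00 over all genes. Dlx5 (2.26), Dlx6 (2.17), Dlx1as (2.17) and Dlx6os1 (3.32) were higher beside Dlx3, and Dlx1 was lower (-0.37, adjusted p 0.0025). Dlx2 differed by -0.02 (adjusted p 0.966). In the KO maxillary branch 0 of 8 were called higher and 4 lower, with a median of -0.67 against 0.00. Those called were Dlx2 (-3.70), Dlx1 (-1.62), Dlx5 (-1.25) and Dlx1as (-0.92). Dlx6 (-0.43, adjusted p 0.394) and Dlx6os1 (-0.38, adjusted p 0.324) missed the threshold, as did Dlx3 and Dlx4.

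In the Dlx5/6 mutant mandibular branch against WT maxillary set 1, 2 of the 8 were called higher and 2 lower, with a median of -0.21. Dlx5 was lower (-1.87) and Dlx6os1 higher (1.16). Dlx1 (0.36, adjusted p 0.0129) and Dlx6 (-0.80, adjusted p 0.0387) were called too. The call of Dlx1 was lost without mutant replicate 2 or 3 or set 1 replicate 1 or 3 (adjusted p 0.0523 to 0.0978), and that of Dlx6 without any mutant replicate or without set 1 replicate 1 or 2 (adjusted p 0.104 to 0.213). Dlx6 also lost its call with the replicate number as a block (adjusted p 0.0538), without the filter (0.104), with a larger pseudocount (0.231), without the intensity trend (0.0877) and in a fit of the compared groups only (0.0733). Against set 2 the call of Dlx1 was lost as well (0.17, adjusted p 0.125).

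**Figure D3:**
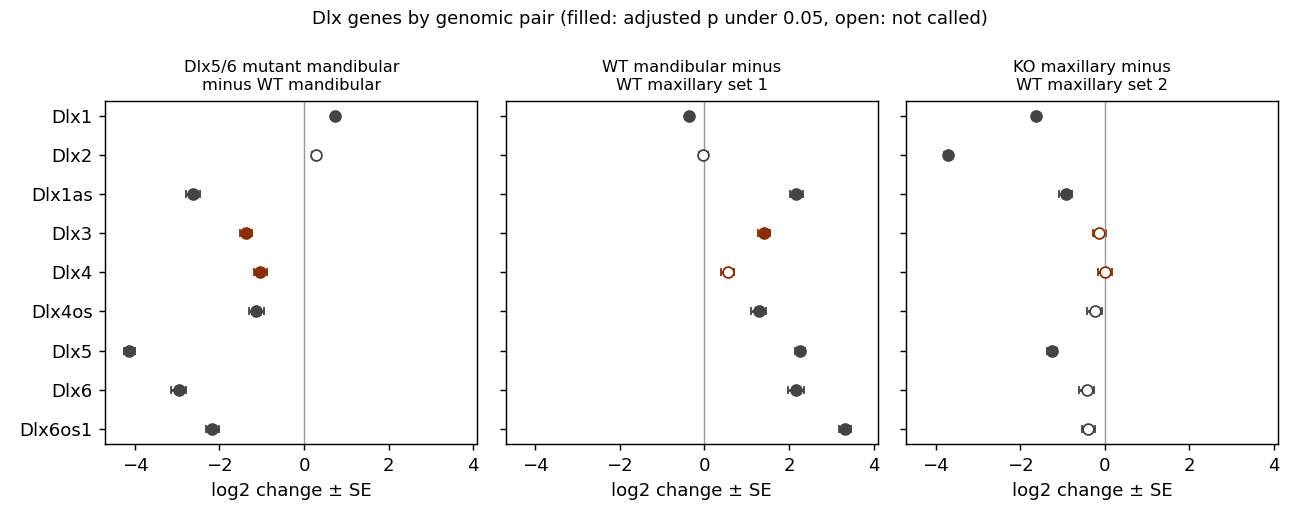
Log2 change with SE of Dlx genes and their antisense RNAs (brightest kept probe set each) in 3 comparisons, filled where limma called them and open where it did not. Dlx3 and Dlx4 (coloured) fall with Dlx5 and Dlx6 in the Dlx5/6 mutant, where Dlx1 rises by 0.72, and stay near 0 in the KO maxillary branch, where Dlx2 changes by -3.70.

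Dlx4os, an RNA listed as the opposite strand of Dlx4, overlaps Dlx4 by 1242 bases in RefSeq's mouse gene table. It was matched by its gene identifier to 1 probe set, 1445913_at, and was named after its values were seen. It had 9.36, 1.83 and 5.11 in Dlx5/6 mutant mandibular arrays and 1.18, 3.61 and 0.915 in KO maxillary arrays. It had 51.4, 48.6 and 46.1 in WT mandibular arrays, 3.01, 22.2 and 1.29 in WT maxillary set 2 and 2.82, 1.22 and 1.18 in set 1. The 3 WT mandibular arrays stood alone, and 1 array of set 2 lay between them and the rest.

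Limma gave Dlx4os a log2 change of -1.12 ± 0.18 in the mutant against the WT mandibular branch (adjusted p 0.000544) and a difference of 1.28 ± 0.18 between the WT mandibular branch and set 1 (adjusted p 6.97e-05). Like Dlx4 1443591_at, this probe set passed the filter through the WT mandibular arrays, so a difference was built into its selection. Its KO minus set 2 value was -0.24 (adjusted p 0.728). Over the 15 arrays its correlation was 0.909 with Dlx3 1450475_at, 0.598 with Dlx4 1420595_at and 0.765 with Dlx4 1443591_at.

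The genes on either side of the Dlx3 and Dlx4 pair on chromosome 11 were read in the same fit. They were the 5 protein-coding genes before Dlx3 (Hils1, Ppp1r9b, Samd14, Pdk2, Itga3) and the 5 after Dlx4 (Tac4, Kat7, Fam117a, Slc35b1, Spop) in the gene table. Of these 10, 9 had a probe set under that name and 7 passed the filter. Limma called 0 of 7 in the mutant against WT mandibular comparison, with 1 at an unadjusted p under 0.05 and changes from -0.17 (Pdk2) to 0.16 (Slc35b1). It also called 0 of 7 between the WT branches, with 1 at an unadjusted p under 0.05, and 0 of 7 in the KO comparison, with 0 at an unadjusted p under 0.05.

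Most tested genes on a list of lower arch transcription factors were lower in the Dlx5/6 mutant, as Dlx3 and Dlx4 were. The list held 12 genes, of which 10 had a probe set under that name and passed the filter, and limma called 8 lower and 0 higher in the Dlx5/6 mutant against the WT mandibular branch, with a median of -1.16 against -0.01 over all genes. Hand2, a basic helix-loop-helix factor of the lower arch, averaged 194 ± 6.91 in mutant and 1665 ± 51.2 in WT arrays (log2 change -2.90). Gbx2 (-2.20), Gsc (-2.19), Pitx1 (-1.85), Plagl1 (-1.24) and Hand1 (-1.09) were also called. Gbx2 averaged 14.7 ± 11.4 in mutant arrays and less in the maxillary groups. Its probe set passed the filter only with the WT mandibular arrays, so a difference of that group was built into its selection. Msx1 (-0.57) and Barx1 (-0.40) were called as well, but not without the intensity trend (adjusted p 0.061 for Msx1 and 0.0671 for Barx1). The call of Msx1 was lost without mutant replicate 1 or 2 or WT mandibular replicate 1 or 3 (adjusted p 0.0508 to 0.112) and in a fit of the compared groups only (0.0546), and that of Barx1 without mutant replicate 1 or 2 or WT mandibular replicate 1 or 2 (adjusted p 0.0526 to 0.11).

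Between the WT branches 6 of the 10 were called higher in the mandibular branch and 0 lower, with a median of 1.62 and Hand2 at 5.24. Barx1, Msx1, Msx2 and Alx4 were not called there (limma's adjusted p 0.294 to 0.701). In the KO maxillary branch 0 were called higher and 2 lower. These were Barx1, a marker of the molar field (-2.61), and Msx2 (-0.36, adjusted p 0.0487), whose call was lost without any single KO or set 2 array (adjusted p 0.0542 to 0.211). Msx2 also lost it with the replicate number as a block (adjusted p 0.0556), with a larger pseudocount, without the filter, without the intensity trend, with array weights and in a fit of the compared groups only (0.0608 to 0.143). In the mutant mandibular branch against WT maxillary set 1, Hand2 alone was called, and it was higher (2.34). Dlx3 1450475_at differed by 0.04 there. Many members of this list are known from work on Dlx mutant arches, which may include these arrays, so the list is no independent measure of direction.

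The signals above the Dlx genes were represented by 18 genes of the endothelin and BMP pathways, of which 17 had a probe set under that name and 16 passed the filter. The BMP antagonist gene Nog did not pass it, and Ednra was not analysed here. In limma 0 of 16 were called in the Dlx5/6 mutant against the WT mandibular branch, with 3 at an unadjusted p under 0.05 and a median of 0.06. Edn1, the ligand, had 20.8 ± 9.38 in mutant and 10.9 ± 10.9 in WT arrays, and Mef2c, a transcription factor downstream of the receptor, had 126 ± 10.2 in mutant and 117 ± 32.1 in WT arrays. Between the WT branches Bmp7, a ligand of the BMP family, was the 1 gene called, lower in the mandibular branch (-0.64, adjusted p 0.00126). In the KO comparison the 1 gene called was Id3, a BMP target, at 0.27 (adjusted p 0.0136). It was not called without the intensity trend (adjusted p 0.145). Its call was lost without KO replicate 2 or 3 or set 2 replicate 1 or 2 (adjusted p 0.0564 to 0.0985), and also after array medians were made equal (0.21, adjusted p 0.164).

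Genes linked to Dlx3 in placenta, skin and bone were read as well. Of 11 on the list 8 had a probe set under that name and 7 passed the filter. Hoxc13, a hair factor gene, did not pass it, and Runx2, Bglap and Gcm1 were not analysed here. In limma 0 of 7 were called in the Dlx5/6 mutant (2 at an unadjusted p under 0.05), 0 of 7 between the WT branches (1) and 0 of 7 in the KO branch (2). The medians were 0.03, -0.03 and 0.07. Pgf, a placental growth factor, had 22.1 ± 6.66 in mutant and 43.7 ± 6.18 in WT mandibular arrays (-0.50, adjusted p 0.281). Trp63, a master factor of stratified epithelium, had 315 ± 14.3 in mutant and 310 ± 11.6 in WT mandibular arrays.

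Markers of other cell types were read beside these results as summed intensities per array. The sums took each gene's brightest probe set of any kind, so for some genes sums and calls rest on different probe sets. Epithelial markers, which matter because Dlx3 is also expressed in surface ectoderm, summed to 3223 to 3308 in Dlx5/6 mutant and 3253 to 3336 in WT mandibular arrays over 14 of 15 genes. They summed to 3192 to 3268 in KO and 2878 to 2990 in set 2 arrays, and to 2952 to 3063 in set 1. Limma called 0 of 14 epithelial genes in the mutant (4 at an unadjusted p under 0.05), between the WT branches (6) and in the KO branch (5).

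Muscle markers had their highest sums on the WT mandibular arrays, as Dlx3 and Dlx4 had their highest levels there. They summed to 285.9 to 378.5 in Dlx5/6 mutant and 403.8 to 429.7 in WT mandibular arrays, and to 307.6 to 325.9 in set 1, over 9 of 10 genes. Myf5 was called lower in the mutant (-0.92), 1 of 9, and Myf5 and Tcf21 were called higher in the WT mandibular branch against set 1. Macrophage markers had their lowest sums on those arrays, with 602.4 to 651.3 in mutant, 370.8 to 411.4 in WT mandibular and 629.5 to 657.9 in set 1 arrays, and 1 of 10 genes called higher in the mutant and 2 called lower between the WT branches. First arch mesenchyme markers summed to 9029 to 9426 in mutant and 7611 to 8261 in WT mandibular arrays, with 4 of 10 called higher and 1 lower in the mutant, 1 higher and 7 lower between the WT branches, and 2 higher and 1 lower in the KO branch.

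Sensory neuron markers summed to 553.7 to 660 in mutant, 540.9 to 596.9 in WT mandibular and 2863 to 2917 in set 1 arrays. Of those tested, 11 of 11 were called lower in the WT mandibular branch against set 1. The sums were 1201 to 1214 in set 2 arrays, and 10 of 11 were called lower in set 2 than in set 1. In the mutant 1 of 11 was called higher. Endothelial markers had 0 of 10 called in the mutant (2 at an unadjusted p under 0.05) and 0 of 10 between the WT branches (2). Erythroid markers had 0 of 8 called in the mutant (0 at an unadjusted p under 0.05) and 1 of 8 higher in the WT mandibular branch. In the KO branch limma called 3 of 11 neuron genes lower, 2 of 10 macrophage genes and 1 of 10 endothelial genes higher, 0 of 8 erythroid genes (1 at an unadjusted p under 0.05) and 0 of 9 muscle genes (2). Of the 2 Hox genes tested, 0 were called in the mutant (0 at an unadjusted p under 0.05), between the WT branches (1) or in the KO branch (0). The part of these cell types in the values of Dlx3 and Dlx4 was not tested.

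The genes whose log2 values followed each probe set most closely over the 15 arrays were ranked among 13934 genes by Pearson correlation. For Dlx3 1450475_at these were Rtl3 (0.971), a gene derived from a retrotransposon, the homeobox genes Gbx2 (0.955) and Gsc (0.952), the orphan receptor gene Gpr50 (0.950) and the BMP and activin pseudoreceptor gene Bambi (0.948). Their log2 changes in the Dlx5/6 mutant against the WT mandibular branch were -1.36 for Rtl3, -2.20 for Gbx2, -2.19 for Gsc, -3.47 for Gpr50 and -0.78 for Bambi. These genes were picked for their likeness to a probe set that peaks on the WT mandibular arrays, over those same arrays, so these values describe the choice. Among the Dlx genes Dlx6 came closest to Dlx3 1450475_at, at 0.933.

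For Dlx3 1422037_at the closest were 3110099E03Rik (0.862), Zdhhc2 (0.861), Tac1 (0.859), Npr3 (0.854) and Mindy1 (0.851). For Dlx4 1420595_at they were Col25a1 (0.854), Fam111a (0.844), Tug1 (0.836), Ddx50 (0.830) and Serpinb5 (0.829). For Dlx4 1443591_at they were Radil (0.920), Bambi (0.890), Lrp12 (0.879), Dlx6 (0.873) and Taldo1 (0.870). Bambi was the only gene to appear for a probe set of each gene, and the lists for the pair of Dlx3 probe sets shared no gene. These correlations describe arrays that share groups and sets, and 15 arrays ranked over so many genes yield high values readily.

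**Figure D4:**
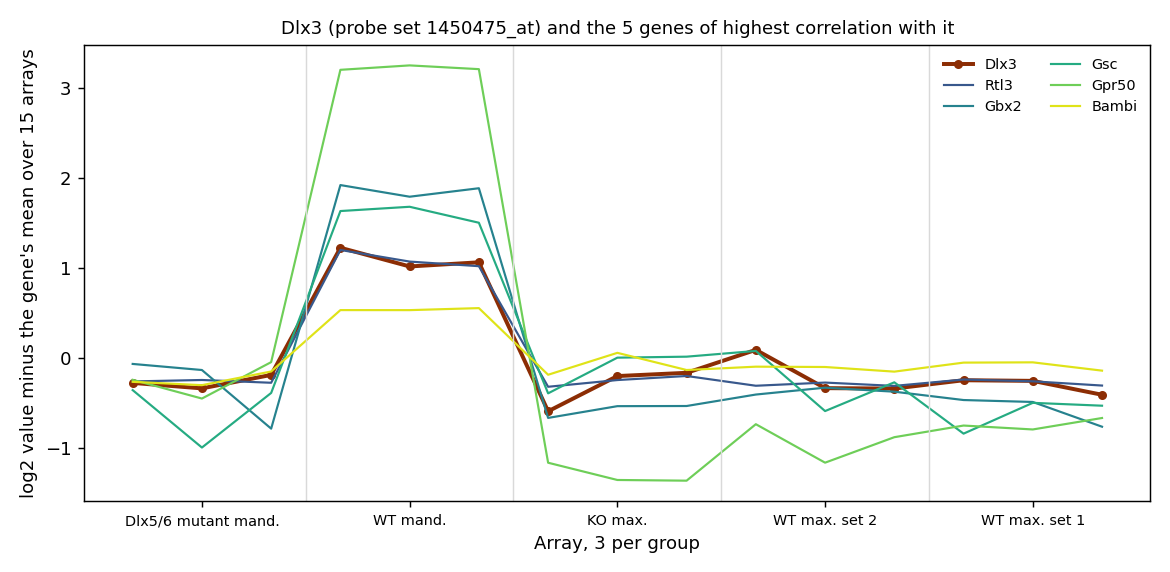
Log2 value of Dlx3 1450475_at (thick line) and of the 5 genes closest to it by correlation, each minus its mean over 15 arrays, with the arrays in their groups along the axis. All 6 lines peak on the 3 WT mandibular arrays, and Gpr50 steps most and Bambi least.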

How the data were processed

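Total RNA of E10.5 mouse first branchial arch was measured on 15 Affymetrix mouse arrays. The authors deposited linear intensity values, 1 per probe set. How the images were summarised and the background corrected is not given in the sources used here. Their mean, trimmed by 2% at each end, was 150 on every array, so the arrays had been scaled before deposition.

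Intensities were converted to log2(value + 32). Array medians spread over 0.159, above the limit of 0.1, so the arrays were quantile normalized. Of the 45101 probe sets (64 of them controls), 31643 lay above the 40th percentile of 3 or more arrays and were kept. A single gene symbol was given for 34958 probe sets and several for 932, while 9211 were not named. The identifiers of 34754 were in RefSeq's gene table (assembly GRCm38.p6), which changed 0 symbols. Other genes were read on their brightest kept probe set, with those not marked as cross-hybridizing preferred.

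Each comparison was a contrast in 1 limma fit (limma 3.58.1, R 4.3.3) of all 15 arrays with a mean per group, 10 residual degrees of freedom and an intensity trend. Two-sided tests were used, with Benjamini-Hochberg adjustment across all kept probe sets. The median SE in the mutant comparison was 0.148, and the number of arrays limits the precision. The procedure was tested on simulated data.

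The genes, lists, comparisons and settings were chosen with earlier results of these data known. Named were both genes' probe sets, the Dlx family, called members of the lower arch, endothelin and BMP, and Dlx3-linked lists, 5 neighbours per side and the 5 most correlated genes per probe set. Cell type lists are given by counts. Dlx4os was added after its values were seen. Other settings were 2 scalings, a smaller and a larger pseudocount, 2 filters, a replicate block, other variance models, fewer samples, the other maxillary set and single arrays left out. Residuals of arrays with the same replicate number correlated between -0.10 and 0.08 (30 pairs), and the samples were treated as unpaired. No more than 0.00222% of values were identical between any arrays. The members' sequences were not used here.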

Additional observations from a re-analysis of the deposited data

Results flagged for a closer look

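Dlx3 and Dlx4 each had a probe set whose change under Dlx5/6 loss in the mandibular branch differed from its change in the KO maxillary branch by limma's test of the difference itself. For Dlx3 1450475_at the difference was -1.25 ± 0.21 on the log2 scale (adjusted p 0.00139), and for Dlx4 1420595_at it was -1.04 ± 0.23 (adjusted p 0.0195). All 3 Dlx5/6 mutant arrays lay below all 3 WT mandibular arrays on both probe sets, as was so for 9.76% of all probe sets. KO and WT maxillary set 2 arrays overlapped. The other probe set of each gene missed limma's threshold (adjusted p 0.0524 for Dlx3 1422037_at and 0.154 for Dlx4 1443591_at). The call of Dlx4 1420595_at was lost in 4 of 12 fits without a single array. Branch and lost gene changed together. Set 2 levels also left too little room on this scale for an equal KO fall, so part of each difference may be built in.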

How the results depend on the processing

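Among 62 fits of the 4 probe sets under other settings, the Dlx5/6 mutant against WT mandibular change kept its direction in 62 and its call in 61. The exception was Dlx4 1443591_at, at -1.04 to -0.83 without single arrays. The WT branch difference kept its direction in 66 of 66 fits and was called in 33. Its calls were gained for Dlx3 1422037_at with a larger pseudocount (0.26), in a fit of the compared groups only (0.57) and against set 2 (0.87). They were gained for Dlx4 1420595_at with a larger pseudocount (0.22), without the intensity trend (0.55) and with array weights (0.59). They were lost for Dlx4 1443591_at with the deposited intensities (0.72), with a smaller one (1.37) and in 4 of 6 fits without an array (0.63 to 0.76, and 0.63 to 0.88 over all 6), and with the deposited intensities 0 of its ordered neighbours were called. In the KO comparison 0 of 66 fits gave a call, and directions turned. Against set 1, Dlx3 1422037_at was at -0.16 and Dlx4os at 0.0017. Dlx4 1420595_at was at -0.015 with array weights. Dlx4 1443591_at was at 0.037 with deposited intensities and 0.0014 with a larger pseudocount. Without single arrays Dlx3 1450475_at ran from -0.20 to 0.018, Dlx3 1422037_at from -0.019 to 0.33, Dlx4 1420595_at from -0.068 to 0.11 and Dlx4 1443591_at from -0.17 to 0.12.

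For the mutant mandibular branch set 2 in place of set 1 gave 0.0037 (Dlx3 1422037_at), -0.073 (Dlx3 1450475_at), -0.63 (Dlx4 1420595_at, called) and 0.014 (Dlx4 1443591_at). Dlx3 1450475_at ran from -0.017 to 0.071 there, and from -0.034 to 0.18 between the maxillary sets, without single arrays. The difference of the effects was called for Dlx3 1422037_at with deposited intensities (-1.06), a common median (-1.03), a larger pseudocount (-0.42), the 60th percentile filter (-1.003) and array weights (-1.04), and ran from -1.19 to -0.85 without single arrays. Dlx4 1420595_at ran from -1.14 to -0.94. The replicate numbers were not read as pairs. With them as a replicate block Dlx3 1422037_at was called (-1.003, adjusted p 0.0488), and the block changed no other call of the 4 probe sets. Among other named genes it ended the calls of Dlx6 (mutant against set 1, adjusted p 0.0538), Msx2 (KO, 0.0556) and Ddx50 (mutant, 0.0731). Dlx2 differed between the WT branches by 0.031 with a common median, by -0.11 to 0.04 without single arrays and by -0.57 against set 2, across the sets of arrays, where it was called (adjusted p 0.000343).

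Probe sets called numbered 841 in the mutant comparison, 452 without the trend and 502 to 654 without an array. They numbered 835 between the WT branches and 3318 against set 2. In the KO comparison there were 289, 172 without the trend, 3310 against set 1 and 176 to 221 without an array. For the mutant against set 1 there were 188, 125 without the trend, 3536 against set 2 and 121 to 147 without an array. Between the maxillary sets there were 2686, 1634 without the trend and 1774 to 2109 without an array, and for the difference of effects 346, 219 without the trend and 2246 against set 1. With a common median the share of calls that were higher was 56.5% in place of 42.6% between the WT branches, 32.7% in place of 50.9% in the KO comparison and 45.5% in place of 34.0% for the mutant against set 1. Both Dlx4 probe sets were left out by the 60th percentile filter. The causes were not tested. Of the fits for other named genes 1148 kept their call and direction, 79 lost and 22 gained a call, and 3 turned.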
